A study of Homo sapiens with 14 samples.

Results

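Hemidesmosomes are the junctions that fasten basal squamous cells to the basement membrane, and 9 genes of this anchor and of its laminin ligand were followed in RNA from KYSE510 cells. They were the integrin subunits ITGA6, ITGB4, ITGA3 and ITGB1, the laminin-332 chains LAMA3 and LAMB3, the transmembrane collagen gene COL17A1, and the plakin genes DST and PLEC. They were taken by gene symbol, as a set picked with earlier results of these data known, from 63677 genes listed in each expression table, and each symbol was found in both tables. KYSE510 is an esophageal squamous cell carcinoma line, and RNA was sequenced 48 h after lipid transfection (Lipofectamine RNAiMAX) of small interfering RNA (siRNA). In the EZH2 series, siEZH2-1 and siEZH2-2 were directed against EZH2, the histone methyltransferase of Polycomb repressive complex 2. Across the LAT1 series, siLAT1-2 and siLAT1-3 were directed against LAT1 (SLC7A5), a carrier of large neutral amino acids. Each series had its own siNC control, and each of the 6 groups had 2 libraries. All groups are of this single line, the knockdowns were transient, and siNC was the sole control in each series, so both siRNAs of a series were set against the same pair of libraries.

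In stratified squamous epithelium, integrin alpha6 beta4 binds laminin-332 outside the cell and the plakins plectin (PLEC) and BPAG1e (a product of DST) inside it, and these hold the keratin filaments. Collagen XVII (COL17A1) spans the membrane beside the integrin and binds both plakins. Laminin-332 is a trimer that includes the alpha3 and beta3 chains, and it is also the ligand of integrin alpha3 beta1, which lies outside hemidesmosomes in focal adhesions linked to actin. Inherited loss of these proteins causes blistering of skin and mucosa, and in squamous carcinoma laminin-332 and alpha6 beta4 are known from the invasive edge.

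Depth was estimated from the step that a single read makes in short U6 RNA genes, and ran from 21200000 to 27500000 reads per EZH2 series library and from 13000000 to 16700000 per LAT1 series library. EZH2 stood at 40.6% and 36.4% of its siNC level with siEZH2-1 and siEZH2-2, and SLC7A5 at 20.3% and 26.0% with siLAT1-2 and siLAT1-3. SLC7A5 also stood at 24.9% of siNC with siEZH2-1 and at 78.6% with siEZH2-2. Of 11 epithelial markers all 11 passed the filter on low values in both series, and by group their summed level in FPKM (fragments scaled by gene length and library depth) was 1701 to 1784 (siEZH2-1), 1443 to 1567 (siEZH2-2) and 1631 to 1770 FPKM (siNC), and 1541 to 1559 (siLAT1-2), 1651 to 1688 (siLAT1-3) and 1780 to 1796 FPKM (siNC). The part of this shift in the changes below was not tested. Summed markers of fibroblasts, endothelium and immune cells were at most 1.52, 0.45 and 1.67 FPKM in any library of the EZH2 series and at most 3.42, 1.69 and 1.59 FPKM in the LAT1 series. In bulk RNA, fewer cells expressing a gene and less RNA per cell cannot be told apart.

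Promoter letters are shown for 4 genes because their RNA went different ways. COL17A1 rose with every siRNA, ITGA6 fell furthest in the EZH2 series, LAMA3 fell with both EZH2 siRNAs, and ITGB1 passed in neither series for the mean of both siRNAs. The RefSeq promoter table used here (GRCh38.p14) was matched by symbol for 6 of the 9 genes, and each sequence is the 250 bases before the outermost start listed there, 5′ to 3′ on the gene's strand. The COL17A1 stretch is chr10:104085881-104086130 (minus strand), that of ITGA6 chr2:172427086-172427335 (plus), that of LAMA3 chr18:23872770-23873019 (plus) and that of ITGB1 chr10:32958231-32958480 (minus). The LAMA3 start lies inside the gene's full span, downstream of its outer end. Capitals mark the letters TGANTCA (the AP-1 consensus), GGAATG (bound by TEAD factors) and TATAAA, searched on both strands, none of which overlaps another in these 4 stretches.
COL17A1: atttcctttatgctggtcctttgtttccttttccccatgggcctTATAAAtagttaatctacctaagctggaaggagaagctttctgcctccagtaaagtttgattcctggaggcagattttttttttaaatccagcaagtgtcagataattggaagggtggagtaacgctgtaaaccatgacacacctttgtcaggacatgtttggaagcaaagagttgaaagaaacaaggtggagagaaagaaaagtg
ITGA6: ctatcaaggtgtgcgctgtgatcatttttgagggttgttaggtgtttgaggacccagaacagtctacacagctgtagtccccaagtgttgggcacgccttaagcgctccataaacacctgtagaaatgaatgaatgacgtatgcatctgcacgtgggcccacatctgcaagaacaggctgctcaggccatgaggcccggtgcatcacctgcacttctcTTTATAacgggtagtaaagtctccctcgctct
LAMA3: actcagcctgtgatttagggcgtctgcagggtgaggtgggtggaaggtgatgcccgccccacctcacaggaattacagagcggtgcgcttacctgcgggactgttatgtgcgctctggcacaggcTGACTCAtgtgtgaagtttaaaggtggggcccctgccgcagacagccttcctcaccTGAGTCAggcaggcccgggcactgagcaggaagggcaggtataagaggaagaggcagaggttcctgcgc
ITGB1: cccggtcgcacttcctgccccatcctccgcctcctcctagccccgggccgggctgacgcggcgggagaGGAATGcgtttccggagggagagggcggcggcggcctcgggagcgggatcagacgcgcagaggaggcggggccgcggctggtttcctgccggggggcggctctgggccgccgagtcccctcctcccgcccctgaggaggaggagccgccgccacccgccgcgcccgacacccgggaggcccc
The 4 stretches differed in base composition. COL17A1 had 40.4% G and C with 1 CpG, ITGA6 50.8% with 8, LAMA3 60.4% with 9 and ITGB1 78.4% with 32, where the medians over 35116 promoters of the same length were 58% and 11. LAMA3 held 2 AP-1 matches, 125 and 69 bases before the start, and 6.57% of all promoters held any. TATAAA stood 206 bases before the COL17A1 start. In ITGA6 it stood 32 bases before the start but on the opposite strand, so the printed letters read TTTATA (10.7% of promoters held it on either strand). GGAATG stood 182 bases before the ITGB1 start (11.9% of promoters). The SP1 letters GGGCGG, which are not capitalised, had 3 matches in ITGB1 and 1 in LAMA3, 197 bases before its start (42.6% of promoters). These are matches of letters and not measured binding, and which start the cells used was not measured here.

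In the EZH2 series 8 of the 9 genes changed for the mean of both siRNAs against siNC. COL17A1 was higher, and ITGA6, ITGB4, ITGA3, LAMA3, LAMB3, DST and PLEC were lower. A gene was counted as changed when limma, fitted to log2(FPKM + 1) of all genes that averaged 1 FPKM or more, gave a Benjamini-Hochberg adjusted p under 0.05. By this rule 30.0% of 11585 genes changed, 17.0% higher and 13.0% lower. The balance depends on scaling: 56.7% of the changed genes were higher, but 48.5% after each library was set to a common column sum, while the share went from 55.8% to 63.5% in the LAT1 series. The median log2 fold change of the 9 genes was -0.46, and that of all genes tested was 0.03. Among the LAT1 libraries 7 of the 9 changed, where 34.5% of 11678 genes did (19.3% higher, 15.3% lower). COL17A1 was again higher, ITGA6, ITGB4, ITGA3, LAMA3, LAMB3 and DST were lower, and ITGB1 and PLEC did not pass. The median of the 9 was -0.12, against 0.01 for all genes. All 9 passed the filter on low values in both series. With 4 siRNA libraries against 2 siNC libraries an exact permutation test cannot give a p under 0.0667, so these calls rest on the spread that limma shares across genes. Whether the libraries of a group are separate cultures is not stated, and p-values therefore measure the spread between libraries, which may be technical.

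Libraries did not overlap with siNC for most of the set. In the EZH2 series the 4 siRNA libraries were all below both siNC libraries for 6 of the 9 genes (ITGA6, ITGB4, ITGA3, LAMA3, DST and PLEC), which held for 15.3% of all genes, and all above them for COL17A1 (25.1% of all genes). In the second series, against LAT1, they were all below for 6 genes, with LAMB3 in the place of PLEC (16.9% of all genes), and all above for COL17A1 (24.4%). The libraries of ITGB1 overlapped in both series, those of LAMB3 in the EZH2 series and those of PLEC in the LAT1 series.

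**Figure D1:**
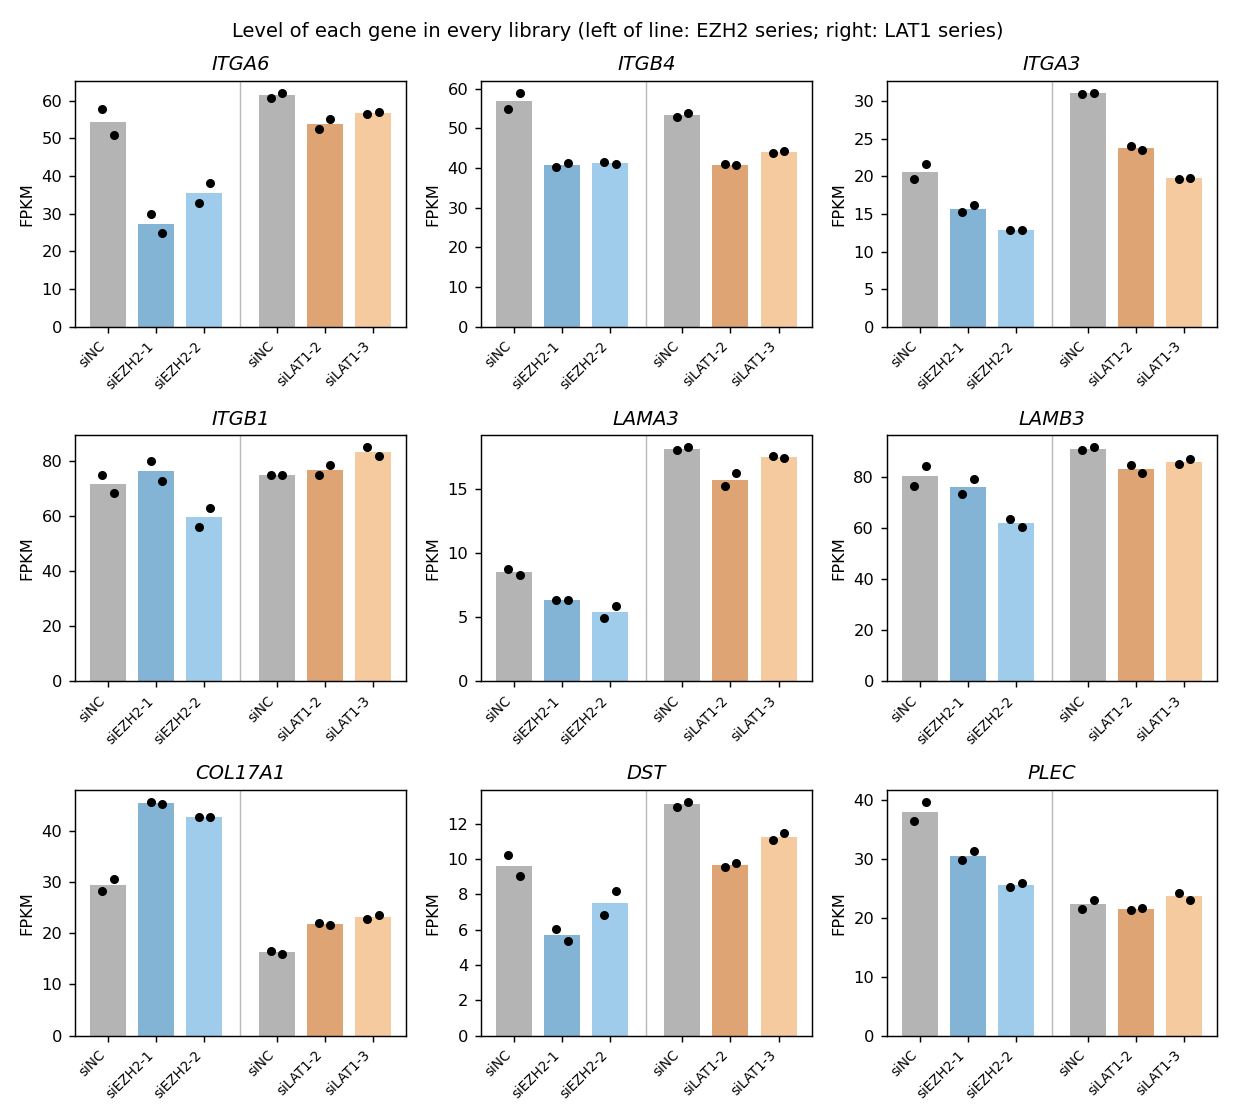
Level in FPKM of each of the 9 genes in all 12 libraries; bars are group means, points are libraries, and the grey line parts the EZH2 series from the LAT1 series. COL17A1 is above its siNC with every siRNA, and ITGA3, ITGA6 and ITGB4 are below it.

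ITGA6 and ITGB4 encode the alpha6 and beta4 chains of the hemidesmosomal integrin, and both fell in both series. ITGA6 (ENSG00000091409) measured 57.73 and 50.9 FPKM with siNC, 29.79 and 24.83 FPKM with siEZH2-1, and 32.76 and 38.11 FPKM with siEZH2-2. No siRNA library reached the siNC range, and siEZH2-1 stood lowest, at 50.3% of siNC, with siEZH2-2 at 65.2%. For the mean of both siRNAs its log2 fold change was -0.79 (SE 0.0985, limma adjusted p = 0.00237), the largest fall of the 9 genes. The siRNAs differed by 0.37 without passing (adjusted p = 0.0761). In the LAT1 series ITGA6 lay at 60.81 and 62.14 FPKM with siNC, 52.54 and 55.12 with siLAT1-2, and 56.61 and 57.1 with siLAT1-3. That fall was small, -0.15 for the mean (SE 0.0284, limma adjusted p = 0.00744), and without siNC replicate 2 it no longer passed (adjusted p = 0.0692). The fall of 0.60 with siEZH2-2 lost its call without siEZH2-2 replicate 1 (adjusted p = 0.0523) or siNC replicate 1 (0.0584), and that of 0.11 with siLAT1-3 without any 1 of 4 libraries (0.105 to 0.187).

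ITGB4 (ENSG00000132470) fell by nearly the same amount with both EZH2 siRNAs. It measured 54.74 and 58.96 FPKM with siNC, 40.14 and 41.12 with siEZH2-1, and 41.48 and 40.87 with siEZH2-2. The siEZH2-1 and siEZH2-2 libraries overlapped each other and lay far below siNC, at 71.5% and 72.4% of it. The mean change was -0.46 (SE 0.0481, limma adjusted p = 0.0012). Across the LAT1 series ITGB4 measured 52.93 and 53.93 FPKM with siNC, 40.92 and 40.75 with siLAT1-2, and 43.89 and 44.29 with siLAT1-3, a mean change of -0.33 (SE 0.0239, adjusted p = 1.43e-04). The 3 groups did not overlap, and the calls against siNC held under all 12 alternatives in both series. GALK1, a galactose kinase gene that overlaps ITGB4 in RefSeq, had means of 5.54 FPKM (EZH2 series) and 4.47 FPKM (LAT1 series), and whether strand was used in counting is not given in the sources used here.

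ITGA3, the alpha3 chain of the laminin-binding integrin of focal adhesions, fell with every siRNA. ITGA3 (ENSG00000005884) measured 19.64 and 21.67 FPKM with siNC, 15.21 and 16.23 with siEZH2-1, and 12.88 and 12.85 with siEZH2-2. Among the LAT1 libraries it measured 31.04 and 31.15 FPKM with siNC, 24.08 and 23.54 with siLAT1-2, and 19.71 and 19.82 with siLAT1-3. In each series the second siRNA named gave the lower level, and no group overlapped another. Relative to siNC, levels stood at 76.1% and 62.3% after siEZH2 and at 76.6% and 63.6% after siLAT1. The mean changes were -0.51 (SE 0.0587, limma adjusted p = 0.00177) and -0.50 (SE 0.0269, adjusted p = 4.55e-05). The call with siEZH2-1 alone (log2 -0.37) was lost without siEZH2-1 replicate 1 (adjusted p = 0.0566) or siNC replicate 2 (0.0502).

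ITGB1, the beta1 chain that pairs with alpha3 and with many other alpha chains, passed for the mean of both siRNAs in neither series. ITGB1 (ENSG00000150093) measured 74.85 and 68.21 FPKM with siNC, 79.92 and 72.54 with siEZH2-1, and 56.14 and 63.02 with siEZH2-2. The siEZH2-1 libraries overlapped siNC and both siEZH2-2 libraries lay below it. Neither siRNA passed against siNC (log2 0.09 and -0.26, adjusted p = 0.449 and 0.064), although siEZH2-2 did among genes averaging 5 FPKM or more (0.0478), and the mean change of -0.09 had a 95% interval of -0.26 to 0.09. In the second series, against LAT1, ITGB1 measured 75.02 and 75.07 FPKM with siNC, 74.83 and 78.59 with siLAT1-2, and 85.0 and 81.82 with siLAT1-3. The rise with siLAT1-3 passed (log2 0.15, adjusted p = 0.0174), but not without siLAT1-3 replicate 1 (0.0846), siNC replicate 1 (0.0857) or siNC replicate 2 (0.0828). The mean of 0.09 did not pass (adjusted p = 0.0555); it did without siLAT1-2 replicate 1 (0.0369), with a common column sum (0.0271) and among genes averaging 5 FPKM or more (0.0343).

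LAMA3 and LAMB3 encode the alpha3 and beta3 chains of laminin-332, and in the EZH2 series LAMA3 fell with both siRNAs and LAMB3 with siEZH2-2. LAMA3 (ENSG00000053747) measured 8.77 and 8.26 FPKM with siNC, 6.33 and 6.3 with siEZH2-1, and 4.93 and 5.88 with siEZH2-2. All 4 siRNA libraries lay below siNC, at 74.2% and 63.5% of it, and the mean change was -0.48 (SE 0.0748, limma adjusted p = 0.00545). The call with siEZH2-1 alone (log2 -0.38, adjusted p = 0.0218) was lost without any 1 of the siEZH2-1 or siNC libraries (0.0546 to 0.116). In the LAT1 series LAMA3 measured 18.06 and 18.27 FPKM with siNC, 15.22 and 16.23 with siLAT1-2, and 17.55 and 17.43 with siLAT1-3. It fell with siLAT1-2 (log2 -0.20, adjusted p = 0.0109), and its change of -0.05 with siLAT1-3 missed the threshold (0.381). The siLAT1-2 call was lost without siLAT1-2 replicate 1 (0.0537), siNC replicate 1 (0.0528) or siNC replicate 2 (0.0653). The mean of -0.12 (adjusted p = 0.0339) was lost without any of 5 libraries, siLAT1-2 replicate 2 being the exception (0.0646 to 0.164).

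LAMB3 (ENSG00000196878) had the highest mean level per length of the 9 genes in both series. It measured 76.43 and 84.42 FPKM with siNC, 73.33 and 79.26 with siEZH2-1, and 63.76 and 60.28 with siEZH2-2. The siEZH2-1 libraries overlapped siNC, whereas the siEZH2-2 libraries lay below all others, at 77.1% of siNC. LAMB3 fell with siEZH2-2 (log2 -0.37, limma adjusted p = 0.0123), and its change of -0.07 with siEZH2-1 missed the threshold (0.464). The siEZH2-2 call was lost without siEZH2-2 replicate 2 (0.0539) or siNC replicate 2 (0.0609), and the call for the mean of -0.22 (adjusted p = 0.0365) without any of the 6 libraries (0.0521 to 0.201). Across the LAT1 series LAMB3 measured 90.63 and 91.73 FPKM with siNC, 84.91 and 81.63 with siLAT1-2, and 84.98 and 87.25 with siLAT1-3. Both siLAT1 groups lay below siNC, siLAT1-2 lowest and with no overlap, with a mean change of -0.11 (adjusted p = 0.0227) that was lost without siLAT1-3 replicate 1 (0.0539), siNC replicate 1 (0.0967) or siNC replicate 2 (0.138). With siLAT1-2 alone (log2 -0.13, adjusted p = 0.019) the call was lost without siLAT1-2 replicate 2 (0.091) or either siNC library (0.0737 and 0.102).

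COL17A1 encodes collagen XVII, the BP180 antigen of bullous pemphigoid, and it was the only one of the 9 genes that rose for the mean of both siRNAs in either series. COL17A1 (ENSG00000065618) measured 28.25 and 30.67 FPKM with siNC, 45.73 and 45.26 with siEZH2-1, and 42.77 and 42.81 with siEZH2-2. Among the LAT1 libraries it measured 16.59 and 15.94 FPKM with siNC, 21.97 and 21.63 with siLAT1-2, and 22.73 and 23.52 with siLAT1-3. In each series every siRNA library lay above both siNC libraries. Relative to siNC, levels stood at 154% and 145% after siEZH2 and at 134% and 142% after siLAT1. The mean changes were 0.57 (SE 0.0489, limma adjusted p = 6.58e-04) and 0.44 (SE 0.0324, adjusted p = 1.41e-04). The siRNAs of a series did not differ beyond the threshold, by -0.09 (95% interval -0.22 to 0.05) for siEZH2-2 minus siEZH2-1 and by 0.08 (-0.01 to 0.17) for siLAT1-3 minus siLAT1-2. The calls against siNC held under all 12 alternatives with every siRNA. KYSE510 siNC cells gave a higher COL17A1 level in the EZH2 series than in the LAT1 series, but the tables were scaled apart and this was not tested.

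DST and PLEC, the plakins that join integrin and collagen XVII to keratin, both fell for the mean of the EZH2 siRNAs, and in the LAT1 series DST fell and PLEC did not pass. DST (ENSG00000151914) measured 10.21 and 9.03 FPKM with siNC, 6.03 and 5.35 with siEZH2-1, and 6.84 and 8.17 with siEZH2-2. The groups did not overlap, siEZH2-1 stood lowest at 59.1% of siNC, and the mean change was -0.49 (SE 0.0902, limma adjusted p = 0.00926), which was lost without siNC replicate 1 (0.0721). DST fell with siEZH2-1 (log2 -0.67, adjusted p = 0.00589). Its change of -0.32 with siEZH2-2 missed the threshold (0.0666) and passed it without siEZH2-2 replicate 2 (0.0462). In the second series, against LAT1, DST measured 12.92 and 13.24 FPKM with siNC, 9.56 and 9.78 with siLAT1-2, and 11.05 and 11.46 with siLAT1-3. The order of the groups was that of ITGA6, and the mean change was -0.30 (SE 0.0356, adjusted p = 0.00105). With siLAT1-3 alone (log2 -0.20, adjusted p = 0.0113) the call was lost without siLAT1-3 replicate 1 (0.058) or siNC replicate 2 (0.0717).

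PLEC (ENSG00000178209) measured 36.34 and 39.68 FPKM with siNC, 29.71 and 31.35 with siEZH2-1, and 25.17 and 25.87 with siEZH2-2. The groups did not overlap and siEZH2-2 stood lowest, at 67.1% of siNC. The mean change was -0.43 (SE 0.0545, limma adjusted p = 0.00244). The call with siEZH2-1 alone (log2 -0.31, adjusted p = 0.0156) was lost without either siEZH2-1 library or siNC replicate 2 (0.0566 to 0.0777). In the LAT1 series PLEC measured 21.5 and 22.97 FPKM with siNC, 21.33 and 21.58 with siLAT1-2, and 24.15 and 23.06 with siLAT1-3. The siLAT1-2 libraries overlapped siNC and both siLAT1-3 libraries lay above it, and the mean change of 0.02 had a 95% interval of -0.07 to 0.11. A second entry named PLEC (ENSG00000261109) was listed at 0 in all 12 libraries. DST, PLEC, LAMA3 and ITGA6 each make several isoforms, and gene values do not separate the epithelial DST product from the others.

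**Figure D2:**
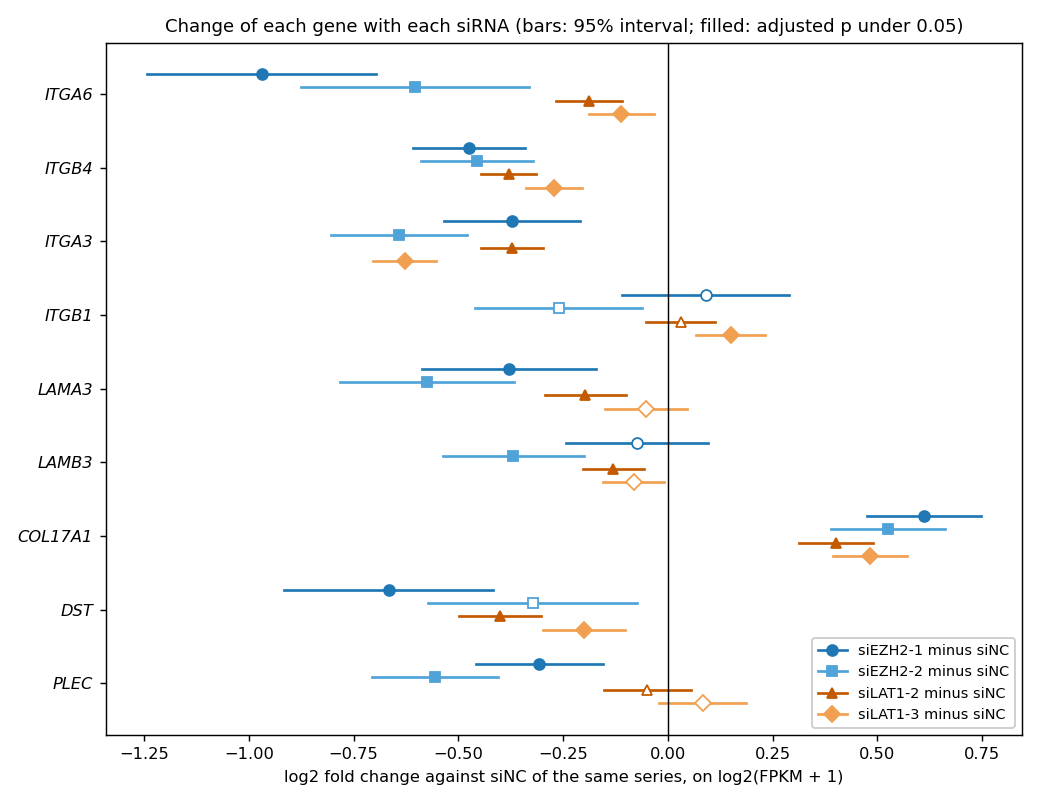
Log2 fold change of each gene with each of the 4 siRNAs against siNC of its series, on log2(FPKM + 1); bars are 95% intervals and filled symbols passed an adjusted p under 0.05. COL17A1 lies right of 0 with all 4 siRNAs, ITGA3, ITGA6 and ITGB4 lie left of it with all 4, and ITGB1 spans both sides.

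Taking each siRNA by itself, 1 of the 9 genes rose and 6 fell with siEZH2-1, where 27.2% of all genes changed (15.9% higher, 11.4% lower). With siEZH2-2 again 1 rose and 6 fell (24.8% of all genes changed, 13.9% higher and 10.9% lower). With siLAT1-2 1 rose and 6 fell (32.5%; 18.6% higher and 13.9% lower), and with siLAT1-3 2 rose and 4 fell (31.4%; 17.9% higher and 13.6% lower). Both EZH2 siRNAs raised COL17A1 (8.93% of all genes) and lowered ITGA3, ITGA6, ITGB4, LAMA3 and PLEC (4.05%). Both LAT1 siRNAs raised COL17A1 (11.2%) and lowered ITGA3, ITGA6, ITGB4 and DST (5.31%). The count for siEZH2-1 was 4 without siEZH2-1 replicate 1 or siNC replicate 2. That for siLAT1-3 was 3 without siLAT1-3 replicate 1 or siNC replicate 2, and that for the mean of both LAT1 siRNAs was 4 without siNC replicate 2. COL17A1 rose with all 4 siRNAs, as did 5.39% of the 10804 genes tested in both series. ITGA3, ITGA6 and ITGB4 fell with all 4, as did 1.34% of those genes.

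The siRNAs to one target differed at several of these genes. Between the EZH2 siRNAs 4 of the 9 differed (16.3% of all genes, 7.40% higher and 8.86% lower), all lower with siEZH2-2: ITGB1 by -0.35, LAMB3 by -0.29, ITGA3 by -0.27 and PLEC by -0.25 on the log2 scale (limma adjusted p = 0.0354 to 0.0426). These 4 calls rest on single libraries. Without siEZH2-1 replicate 1, siEZH2-1 replicate 2 or siEZH2-2 replicate 1 the count was 0, and without siEZH2-2 replicate 2 it was 1. ITGA6 and DST pointed the other way, with differences of 0.37 and 0.34 that did not pass (adjusted p = 0.0761 and 0.0711). Between the LAT1 siRNAs 5 of the 9 differed (25.5% of all genes, 12.4% higher and 13.1% lower). With siLAT1-3 ITGA3 was lower (-0.26, adjusted p = 0.00157), and DST (0.20), LAMA3 (0.15), ITGB1 (0.12) and ITGB4 (0.11) were higher (adjusted p = 0.0138 to 0.0452). The ITGA3 difference held under all 12 alternatives. The count was 1 without siLAT1-2 replicate 1 or siLAT1-3 replicate 2, and 2 without siLAT1-3 replicate 1 or either siNC library.

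Within the groups of the EZH2 series the genes also split by library. In all 3 groups the library with the higher ITGA6 level also had the higher ITGB1, LAMA3 and DST levels and the lower ITGB4, ITGA3 and LAMB3 levels. COL17A1 and PLEC took the side of ITGA6 in 2 and 1 of the 3 groups. Across the LAT1 series DST took the side of ITGA6 in all 3 groups, and ITGA3, ITGB1, ITGB4, LAMA3, LAMB3 and PLEC in 2. These counts rest on pairs of libraries and carry no test. The split of the EZH2 series is not particular to these genes. Over all genes tested, within-group differences by replicate number correlated at 0.355 between siEZH2-1 and siNC. They correlated at -0.353 and -0.340 between siEZH2-2 and these groups. ITGA6 had the same signs, being higher in replicate 1 of siNC and siEZH2-1 and in replicate 2 of siEZH2-2. The share of all genes taking each side was not counted.

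Ratios of 2 genes within a library do not depend on how libraries were scaled. The ratio of COL17A1 to ITGB4, the collagen and integrin that sit side by side in the junction, was 0.516 and 0.520 in the siNC libraries of the EZH2 series. It was 1.14 and 1.10 with siEZH2-1, and 1.03 and 1.05 with siEZH2-2. Among the LAT1 libraries it was 0.313 and 0.296 with siNC, 0.537 and 0.531 with siLAT1-2, and 0.518 and 0.531 with siLAT1-3. The siRNA libraries lay above siNC without overlap in both series, and the siRNAs of a series were close to each other. That separation follows from the levels above, with COL17A1 above and ITGB4 below siNC in every siRNA library. The ratio of COL17A1 to DST rose from 2.77 and 3.40 with siNC to between 5.24 and 8.46 in the siEZH2 libraries, and from 1.28 and 1.20 to between 2.05 and 2.30 in the siLAT1 libraries. Its separation likewise follows from the levels, since DST lay below siNC in every siRNA library. The ratio of ITGA3 to ITGB1, the pair that forms alpha3 beta1, was 0.262 and 0.318 with siNC and 0.190 to 0.229 in the siEZH2 libraries. In the second series, against LAT1, it was 0.414 and 0.415 with siNC, 0.322 and 0.300 with siLAT1-2, and 0.232 and 0.242 with siLAT1-3, in 3 separate steps. The ratio of ITGA6 to ITGB4 was 1.05 and 0.863 with siNC against 0.604 to 0.932 in the siEZH2 libraries, with overlap, and 1.15 in both siNC libraries of the LAT1 series against 1.28 to 1.35 in the siLAT1 libraries, with none.

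**Figure D3:**
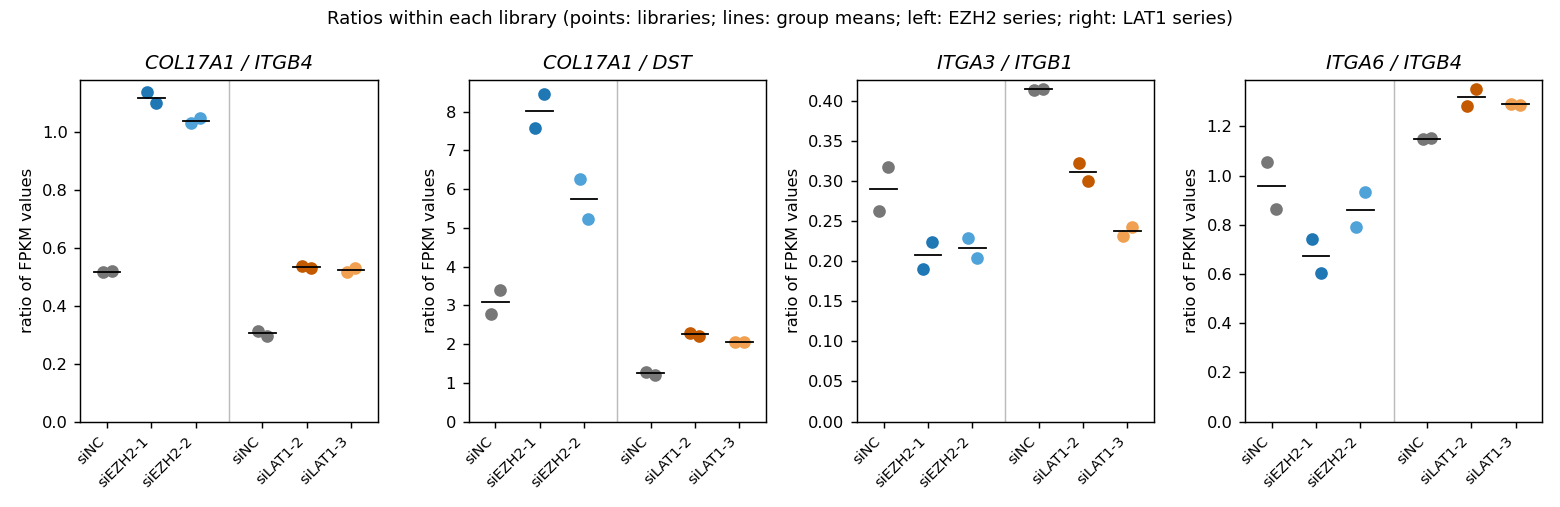
Ratios of FPKM values within each library for 4 gene pairs, by group; points are libraries, short lines are group means, and the grey line parts the EZH2 series from the LAT1 series. COL17A1 to ITGB4 is about 0.52 in siNC and above 1 with both EZH2 siRNAs, and about 0.3 and 0.53 in the LAT1 series.

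By level per length, the siNC order in the EZH2 series was LAMB3, ITGB1, ITGB4, ITGA6, PLEC, COL17A1, ITGA3, DST and LAMA3. Their group means ran from 80.4 ± 5.65 FPKM (SD, n = 2) for LAMB3 to 8.52 ± 0.361 FPKM for LAMA3. The libraries of the neighbours ITGB4 and ITGA6 overlapped there, and no other neighbours did. In the siNC libraries of the LAT1 series the order was LAMB3, ITGB1, ITGA6, ITGB4, ITGA3, PLEC, LAMA3, COL17A1 and DST, from 91.2 ± 0.778 to 13.1 ± 0.226 FPKM, and no neighbours overlapped. How gene lengths were set is not given in the sources used here, so an order between genes rests on the authors' lengths.

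Other genes of the junction and of cell adhesion were counted from lists by role. For the mean of both siRNAs, 17.0% of all genes tested were higher and 13.0% lower in the EZH2 series. In the LAT1 series 19.3% were higher and 15.3% lower. The lists were not tested as sets. Of 4 other hemidesmosome zone genes, the keratin genes KRT5 and KRT14 and the tetraspanin gene CD151 fell for the mean of both LAT1 siRNAs (log2 -0.17, -0.45 and -0.16), and the anchoring fibril collagen gene COL7A1 did not pass (-0.07). For the mean of both EZH2 siRNAs these 4 missed the threshold, at log2 -0.11, 0.07, 0.06 and 0.06 in the same order (limma adjusted p = 0.2 to 0.65). KRT5 passed with each LAT1 siRNA alone (log2 -0.23 and -0.12), whereas KRT14 and CD151 each missed the threshold with at least 1 of them. Without the filter on low values KRT5 did not pass with siLAT1-3 (limma adjusted p = 0.124). With quantile normalization KRT5 lost its LAT1 series call (limma adjusted p = 0.211) and passed in the EZH2 series (log2 -0.15, adjusted p = 0.00639), as it did there with a common column sum (-0.16, 0.0325). CD151 lost its call without any 1 of 4 libraries (siLAT1-2 replicate 2, siLAT1-3 replicate 2 and either siNC library, adjusted p = 0.0617 to 0.247), with a common column sum (0.0815) and without the filter (0.154). Among 5 other plakins, EPPK1 (log2 0.42) and EVPL (0.39) rose and PPL (-0.26) fell for the mean of both siRNAs in the EZH2 series. The 1 lower plakin with siEZH2-1 alone was DSP (log2 -0.37, limma adjusted p = 0.023), so PPL did not pass with that siRNA. DSP did not pass with siEZH2-2 (0.09, adjusted p = 0.506), and the EZH2 siRNAs differed at DSP (0.46, adjusted p = 0.0171). EVPL and PPL, which meet in the cornified envelope, also moved apart in the LAT1 series, where both passed with each siRNA. There EVPL (0.45), EPPK1 (0.26) and DSP (0.10) rose and PPL (-0.49) fell, though without siNC replicate 1 the count of higher plakins was 1 in the LAT1 series and 0 in the EZH2 series. The PPL change was -0.22 with siLAT1-2 and -0.75 with siLAT1-3. Higher plakins numbered 1 with siLAT1-2 alone and 2 with siLAT1-3 alone. Without siNC replicate 2 no plakin was lower in the EZH2 series, and without siEZH2-2 replicate 2 there were 2.

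Integrins and laminins outside the set either fell or did not pass for the mean of both siRNAs in each series. ITGA2, the alpha2 chain of a collagen receptor, fell by 1.00 on the log2 scale in the EZH2 series (limma adjusted p = 0.00604) and by 0.52 in the LAT1 series (adjusted p = 5.58e-04), the only one of 4 other alpha chains tested to change; without siLAT1-3 replicate 2, or among genes averaging 5 FPKM or more, there were 2 in the LAT1 series. In the EZH2 series ITGA2 averaged under 5 FPKM, and with the filter at 5 FPKM, which leaves it out, 0 other alpha chains were lower. Without the filter on low values its EZH2 series call was lost (limma adjusted p = 0.0576). Its calls with siEZH2-1 and siEZH2-2 alone were lost there too (0.0803 and 0.091), and also with some single libraries left out. ITGB5 (log2 -0.39) and ITGB2 (-0.36) fell in the EZH2 series, and of 3 other beta chains tested none changed in the LAT1 series. Without either siNC library the EZH2 series count was 1, as it was with siEZH2-1 alone. Of 4 other laminin chains, LAMC1 (-0.42) and LAMA5 (-0.28) fell in the EZH2 series and LAMA5 (-0.21) in the LAT1 series; in the EZH2 series LAMC1 no longer passed without siNC replicate 1 (adjusted p = 0.0588), nor LAMA5 without siNC replicate 2 (0.0694). Of the other basement membrane genes, AGRN (-0.27) and COL4A2 (-0.18) were lower among 9 tested in the EZH2 series. Leaving out any 1 library brought that count to 0 or 1. It was 0 with siEZH2-1 alone and 2 with siEZH2-2 alone. In the LAT1 series, among 12 tested, the collagen IV genes COL4A1 (0.57) and COL4A6 (0.54) rose, and COL18A1 (-0.18) and SPARC (-0.09) fell. The count of lower genes became 1 without siLAT1-2 replicate 1 or either siNC library.

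Among integrin adhesion linkers, 7 of 18 tested were lower and 1 higher in the EZH2 series (13.0% and 17.0% of all genes). In the LAT1 series 7 of 20 were lower and 1 higher (15.3% and 19.3% of all genes). VCL (vinculin) fell in both, by 0.68 and 0.72, and TNS4, a tensin of epithelial cells, by 0.87 in the EZH2 series. The LAT1 series siRNAs were far apart for VCL, at log2 -1.15 with siLAT1-2 and -0.28 with siLAT1-3. FERMT2 (kindlin-2) fell by 0.40 and TNS3 rose by 0.28 in the LAT1 series. The higher linker of the EZH2 series, KANK2 (log2 0.18, adjusted p = 0.0393), lost its call without any 1 of the 6 libraries (0.0752 to 0.173), with a common column sum (0.113) and without the filter on low values (0.0509). The EZH2 series count of lower linkers ranged from 3 (without siNC replicate 2) to 6 with 1 library left out, and was 4 without siEZH2-1 replicate 2 or siNC replicate 1. Of proteases listed for laminin-332 and collagen XVII, 5 of 8 tested were lower in the EZH2 series (13.0% of all genes). They were PLAU (urokinase, -0.55), ADAM9 (-0.51), BMP1 (-0.38), ADAM17 (-0.37) and MMP2 (-0.36). Across the LAT1 series 5 of 10 were lower (15.3% of all genes), BMP1 (-0.29), PLAU (-0.24), MMP2 (-0.21), ADAM10 (-0.16) and ADAM9 (-0.13), and MMP14 was higher (0.15). Without siNC replicate 1 and without siNC replicate 2 the counts of lower proteases were 3 and 2 (EZH2 series) and 1 and 2 (LAT1 series). Of kinases and adaptors tied to alpha6 beta4 signalling, 6 of 13 were lower in the EZH2 series (13.0% of all genes). In the LAT1 series 7 of 14 were lower (15.3% of all genes), and none was higher in either series. MET, the hepatocyte growth factor receptor, fell by 0.78 in the EZH2 series. EGFR fell by 0.45 in the EZH2 series (limma adjusted p = 0.0227) and by 0.29 in the LAT1 series. Its EZH2 series fall passed with siEZH2-1 (log2 -0.56, adjusted p = 0.0196) and not with siEZH2-2 (-0.34, 0.091). The counts of lower kinases and adaptors without siNC replicate 1 and replicate 2 were 1 and 2 (EZH2 series) and 4 and 4 (LAT1 series). Without siEZH2-1 replicate 2 the EZH2 series count was 3. With any 1 library left out, fewer of all genes passed as well for the mean of both siRNAs in each series, so such losses are not particular to these lists. Without the filter on low values the EZH2 series counts of lower genes were 4 linkers, 2 proteases, 2 kinases and adaptors, 1 beta chain, 1 laminin chain and 0 basement membrane genes, and 0 plakins were higher. That setting left 3 lower proteases and 1 lower basement membrane gene in the LAT1 series. For each siRNA alone, the lower linkers, proteases, and kinases and adaptors were 3, 1 and 3 with siEZH2-1 (11.4% of all genes lower). They were 8, 5 and 6 with siEZH2-2 (10.9%), 8, 4 and 6 with siLAT1-2 (13.9%), and 5, 4 and 4 with siLAT1-3 (13.6%). PLAU was the 1 lower protease with siEZH2-1. ADAM9, BMP1 and ADAM17 did not pass with that siRNA (limma adjusted p = 0.0979, 0.0728 and 0.0788), and neither did MMP2.

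**Figure D4:**
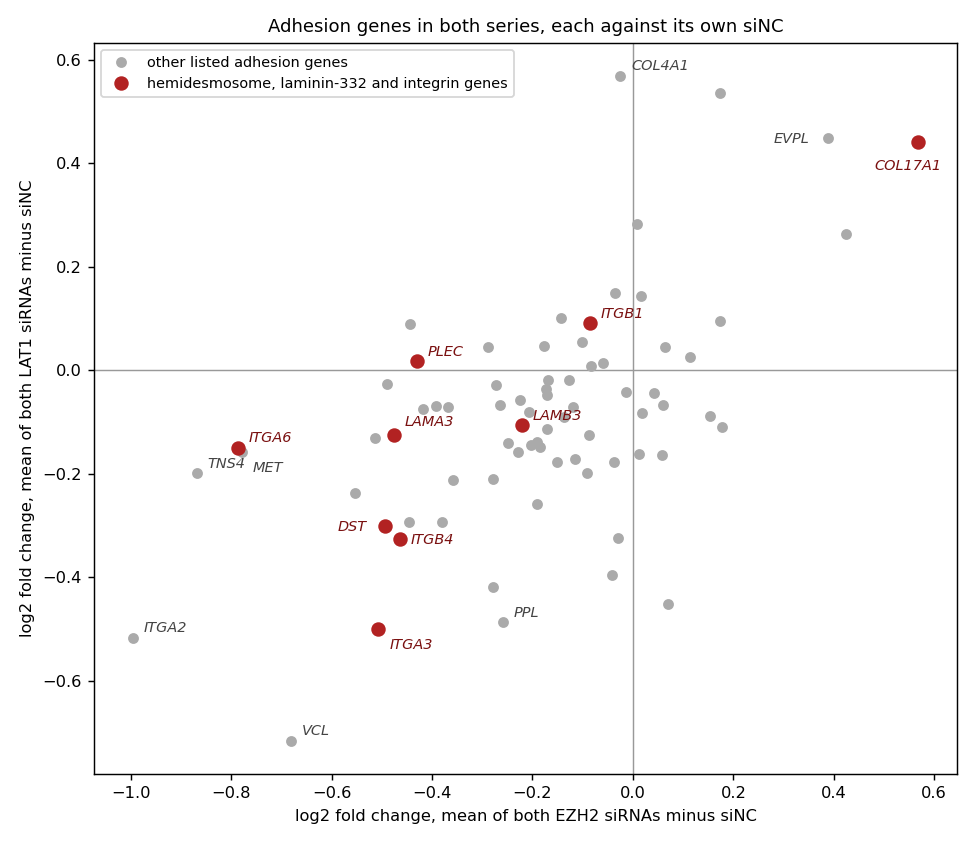
Log2 fold change for the mean of both siRNAs against siNC, EZH2 series on the horizontal axis and LAT1 series on the vertical, for the 9 genes (red) and 66 other listed adhesion genes (grey). COL17A1 stands at the upper right (0.57 and 0.44), ITGA3 at the lower left (-0.51 and -0.50), and ITGA6 far left with a small LAT1 change (-0.79 and -0.15).

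Genes with profiles most like those of the set were sought by Pearson's r over the 12 libraries, each centred on the siNC mean of its own series, among 6618 genes averaging 5 FPKM or more in both. The values are descriptions, since libraries share groups and depth and the best of many genes were taken. For ITGA6 the nearest was NOTCH2 (r = 0.996), and for DST EGFR (0.980) and AHNAK (0.977). ITGB4 lay nearest AURKA (0.987) and LAMA5 (0.975), and LAMA3 nearest MET (0.981) and AFAP1L2 (0.972). COL17A1 lay nearest the lysyl-tRNA synthetase gene KARS (0.993). The nearest to ITGA3 were ADORA2B (0.976) and TRAF3IP2 (0.962), to ITGB1 AREL1 (0.959) and SLC20A2 (0.952), to LAMB3 RHOD (0.978) and TUBA4A (0.974), and to PLEC EPHA2 (0.977) and HNRNPA0 (0.965). Within the set r was highest between PLEC and LAMA3 (0.924) and lowest between COL17A1 and ITGB4 (-0.939), over the same 12 libraries.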

How the data were processed

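Values were FPKM to 2 decimals for 63677 genes in 2 deposited tables, 1 per series, which the authors made from RNA of KYSE510 cells. Per the submitters' processing notes the tools included STAR and Bowtie and the builds hg19 and hg38; which made these tables, and the counting program, are not given in the sources used here. Each table was fitted alone with limma 3.58.1 (R 4.3.3, trend) on log2(FPKM + 1), which understates the change of low genes, for genes averaging 1 FPKM or more. The design had 1 group per siRNA and siNC and no covariates. Each siRNA was compared with siNC, their mean with siNC and the siRNAs with each other, two-sided, adjusted by Benjamini-Hochberg over all genes tested. The procedure was tested on simulated data.

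The 9 genes and all lists were chosen with earlier results of these data known. From each list up to 4 genes with the largest change in the mean and in both siRNAs were to be named; ITGB2, AGRN, COL4A2, COL18A1, SPARC, KRT14, CD151, COL7A1, KANK2, DSP, ADAM9, ADAM10, ADAM17, MMP2 and MMP14 were named after their values were seen, to complete counts. Results for 3 further genes are not reported here. In the LAT1 series the titles number both siNC libraries alike, so the descriptions were followed. Alternatives were quantile normalization, a common column sum (TPM), leaving out each library, the replicate number as a block, filters of none or 5 FPKM, and a pseudocount of 0.1. The EZH2 CUT&Tag samples were not analysed here. Tables and plots were made with Python 3.11.15.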

Additional observations from a re-analysis of the deposited data

Results flagged for a closer look

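The siRNAs to the same target differed at several genes by the limma test of the difference itself. Between the EZH2 siRNAs (siEZH2-2 minus siEZH2-1, log2) these were ITGB1 at -0.35, LAMB3 at -0.29, ITGA3 at -0.27 and PLEC at -0.25. Between the LAT1 siRNAs (siLAT1-3 minus siLAT1-2) they were ITGA3 at -0.26, DST at 0.20, LAMA3 at 0.15, ITGB1 at 0.12 and ITGB4 at 0.11. The ITGA3 difference between the LAT1 siRNAs kept its call under all 12 alternatives, and each of the others lost it under at least 2.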

How the results depend on the processing

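Over the 8 contrasts and 12 alternatives, 740 of 864 values of the 9 genes kept their direction and side of the threshold, 114 lost a call, 8 gained one and 2 changed sign. COL17A1, ITGA3 and ITGB4 kept their calls for the mean of both siRNAs under all 12 alternatives in both series. PLEC for the mean of the LAT1 siRNAs (log2 0.02) ran from -0.0284 to 0.0629 with 1 library left out, and ITGB1 with siLAT1-2 (0.03) from -0.0041 to 0.0657. The cause was not tested.

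Without the filter on low values more genes were tested (29763 and 28719) and counts of all genes called fell to 1820 for the mean of the EZH2 siRNAs (from 3481), 1604 for siEZH2-1 (3156), 1554 for siEZH2-2 (2874), 836 for the difference of the EZH2 siRNAs (1883), 2402 for siLAT1-3 (3672) and 1823 for the difference of the LAT1 siRNAs (2981). It ended the calls of DST and LAMB3 for the mean of the EZH2 siRNAs (limma adjusted p = 0.0617 and 0.135) and of LAMA3 and LAMB3 for that of the LAT1 siRNAs (0.0852 and 0.0748), which a common column sum also ended (0.0676 and 0.0646). With single siRNAs it ended those of LAMA3 and PLEC (siEZH2-1), ITGA6 and LAMB3 (siEZH2-2), LAMB3 (siLAT1-2), and ITGA6 and ITGB1 (siLAT1-3), at 0.0602 to 0.116. A common column sum ended those of LAMB3 with siLAT1-2 (0.0573) and ITGA6 with siLAT1-3 (0.0711).

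Of the 9 genes, those that differed between the EZH2 siRNAs went from 4 to 2 with a common column sum, 0 without the filter and 0 with the replicate block, and between the LAT1 siRNAs from 5 to 2, 3 and 2. Replicate numbers did not pair the libraries across all groups: the correlations of within-group differences were -0.353, 0.355 and -0.340 (EZH2 series) and 0.0177, 0.0334 and 0.0826 (LAT1 series). In the EZH2 series siEZH2-1 and siNC went the same way by replicate number, and siEZH2-2 the opposite way. A block by replicate number does not take up such a shared difference. With the replicate block, counts of all genes were 2007 for siEZH2-1 and 1021 for the difference of the EZH2 siRNAs, and the calls of LAMB3 for the mean of the EZH2 siRNAs (adjusted p = 0.0669) and LAMA3 with siEZH2-1 (0.0514) were lost.

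With 1 library left out, a lone library is assumed to vary like the other groups. Counts of the 9 genes ran from 4 to 7 for siEZH2-1, 0 to 4 for the difference of the EZH2 siRNAs, 4 to 7 for the mean of the LAT1 siRNAs, 3 to 6 for siLAT1-3 and 1 to 4 for the difference of the LAT1 siRNAs. Counts of all genes ran from 1360 to 3360 for the mean of the EZH2 siRNAs, 1201 to 3037 for siEZH2-1, 1445 to 2479 for siEZH2-2 and 650 to 1499 for their difference. In the LAT1 series they ran from 2288 to 3602 for the mean, 2364 to 3756 for siLAT1-2, 2138 to 3526 for siLAT1-3 and 1958 to 2536 for the difference. Depth from U6 steps is an estimate, 2 libraries a group limit precision, and FPKM keeps no counting error.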
